A study of Mus musculus with 8 samples.

Results

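Type I interferon response genes were followed in cells labelled as dendritic cells (DCs), sorted from mouse mammary tumours. The set was 33 named genes chosen for their function and matched by gene symbol. All 33 were among the 10825 genes of the raw count table, and 28 of the 6156 genes deep enough to test were members. The tumours came from E0771, a mouse mammary carcinoma cell line, injected into wild-type (WT) mice. One group of mice received PBS, the vehicle, and the other DRQ, described in the labels as an inhibitor of CD74, from day 10. Cells labelled DCs were sorted 3 weeks after injection, giving 4 PBS and 4 DRQ libraries. Whether the 4 samples of a group came from different mice, or from pooled ones, is not in the labels; the p-values therefore reflect only how far these samples scatter, and that scatter may be technical.

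Type I interferons (interferon alpha and beta) bind the receptor chains IFNAR1 and IFNAR2, whose kinases JAK1 and TYK2 phosphorylate STAT proteins. With IRF9 these form a complex that binds interferon-stimulated response elements (ISREs) in the promoters of antiviral genes. In DCs the response is known for aiding cross-presentation and T cell priming. Interferon gamma acts through a different element, the gamma-activated site (GAS), and many genes respond to both.

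The response element itself was read from RefSeq promoter sequences of build GRCm38.p6, from 250 bases before to 50 bases after each annotated start. Of the 33 genes 24 had an entry. The ISRE core was searched on both strands as GAAA, any 2 bases, then GAAA, and 13 of the 24 genes (54.2%) held it, against 3.99% of the 27025 genes in the promoter table and 4.38% of the 4698 tested genes with an entry. The GAS letters, TTC, any 3 bases, then GAA, were in 5 of the 24 (20.8%), against 9.55% of the table. A match describes the letters only, and no binding was measured here. Upstream stretches of 60 bases are shown for 6 genes because they carry the response element searched for. Capitals mark matches to the ISRE core, which overlap in Isg15, Oas1a and Bst2. On the opposite strand the core reads TTTC, any 2 bases, then TTTC.
Isg15: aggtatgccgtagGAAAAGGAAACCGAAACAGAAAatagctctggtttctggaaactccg
Ifit1: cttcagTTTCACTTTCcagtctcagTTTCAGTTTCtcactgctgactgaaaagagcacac
Ifit3: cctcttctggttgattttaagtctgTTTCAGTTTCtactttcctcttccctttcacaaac
Oas1a: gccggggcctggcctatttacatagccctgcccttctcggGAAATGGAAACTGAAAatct
Rsad2: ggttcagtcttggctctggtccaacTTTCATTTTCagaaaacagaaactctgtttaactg
Bst2: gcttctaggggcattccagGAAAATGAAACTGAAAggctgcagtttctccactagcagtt
In GRCm38.p6 the stretch of Isg15 lies at chr4:156200850-156200909 on the minus strand and that of Ifit1 at chr19:34640779-34640838 on the plus strand. Ifit3 is shown at chr19:34583382-34583441 on the plus strand, and Oas1a at chr5:120907526-120907585 on the minus strand. Rsad2 is shown at chr12:26456538-26456597 and Bst2 at chr8:71537562-71537621, both on the minus strand. The matching stretch of Ifit3b was identical to that of Ifit3 in 60 of 60 bases. Isg15 held 3 matches, starting at positions -78, -72 and -66 from its annotated start, and Ifit1 held 2, at -104 and -85.

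Libraries held 361792 to 543892 counts, and a count of 0 allowed a level of up to 5.43 to 8.59 CPM, the usual depth-scaled unit of counts. These limits cover counting error only. The libraries are labelled DCs, but in every library natural killer (NK) cell markers summed higher than conventional DC markers. Of the NK cell markers 10 of 10 were counted in all 8 libraries, summing to 11179 to 15872 CPM in PBS and 9498 to 14737 CPM in DRQ. Of 10 conventional DC markers 8 were listed, and they summed to 2062 to 4485 CPM in PBS and 4168 to 4467 CPM in DRQ, most of it Cst3, which macrophages also express. The DC-restricted factor Zbtb46 had 0 to 12 counts per library, with 0 in PBS replicate 1. Plasmacytoid DCs, the main interferon producers, left little trace: 8 of 10 of their markers were listed and 3 were counted in all 8 libraries. They summed to 101 to 175 CPM in PBS and 118 to 165 CPM in DRQ, and their marker Siglech stood at 0 to 7 counts, with 0 in PBS replicate 2 and DRQ replicate 2. In bulk samples fewer cells of a type and less RNA per cell cannot be told apart.

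As a group, the interferon response genes had slightly higher estimates in DRQ, but no single gene passed the test. The difference was smaller without the lowest PBS library, which was singled out from these data. The mean over the 33 genes was 6.25, 5.79, 6.51 and 6.38 log2 CPM in PBS replicates 1 to 4. It was 6.50, 6.67, 6.50 and 6.43 log2 CPM in DRQ replicates 1 to 4. PBS replicate 2 was the lowest library and DRQ replicate 2 the highest, and the groups overlapped because PBS replicate 3 lay above DRQ replicates 1, 3 and 4. The group means were 6.23 ± 0.31 in PBS and 6.52 ± 0.10 in DRQ (log2 CPM, SD, n = 4). Without PBS replicate 2 the PBS mean was 6.38 ± 0.13 (SD over the other 3 libraries).

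**Figure D1:**
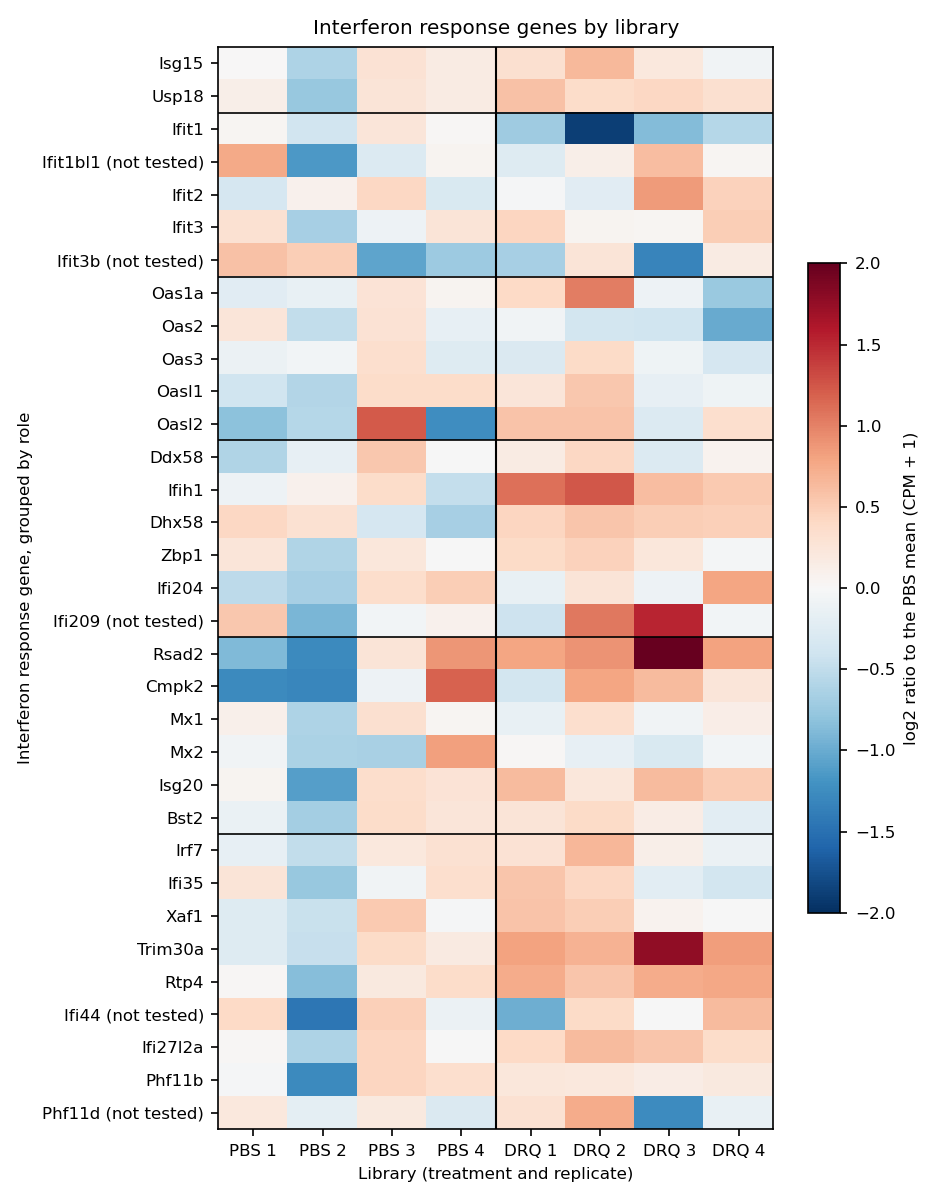
Heat map of the 33 interferon response genes (rows, grouped by role with black lines) in the 8 libraries (columns). Colour is the log2 ratio of CPM + 1 to the PBS mean + 1, limited to -2 to 2, and genes too low to test are marked; the column of PBS replicate 2 is blue in most rows.

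Of the 28 tested genes 24 had an estimate above 0, with a median log2 fold change (DRQ over PBS) of 0.29. Over all 6156 tested genes 48.4% had an estimate above 0 and the median was -0.012. With edgeR's quasi-likelihood test and Benjamini-Hochberg adjustment 0 of the 28 passed an adjusted p of 0.05, where 0.0325% of all genes tested did. At an unadjusted p under 0.05 edgeR gave 6 of the 28 higher, against 3.98% of all genes, and 1 lower, against 3.28%. DESeq2, which gave an adjusted p to 14 members, also called 0 (0.845% of the genes it adjusted). With limma-voom 0 of the 28 were called, where 4 of all 6156 genes tested were. Groups did not overlap for 5 genes higher in DRQ, where 2.13% of all genes tested were, and for 1 lower, where 2.18% were. Without PBS replicate 2 the median fell to 0.14 and 20 of the same 28 estimates were above 0, against 48.7% of all genes then tested. In that fit edgeR gave 4 of the 30 members then tested higher at an unadjusted p under 0.05 (3.64% of all genes). It gave 1, Ifit1, lower (210 of 6684 genes), and no member was called (0.0299% of all genes). With any other single library left out the median ran from 0.22 (without DRQ replicate 2) to 0.39 (without PBS replicate 3).

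Markers of cell types were compared between the groups in the same fit. Of 10 tested T cell markers 6 had estimates above 0, against 48.4% of all genes tested, with a median log2 fold change of 0.21. At an unadjusted p under 0.05 edgeR gave 4 of them higher, against 3.98% of all genes. Their sums were 1797 to 2600 CPM in PBS and 2305 to 2415 CPM in DRQ. Of 8 tested monocyte and macrophage markers 7 were above 0, with a median of 0.24 and sums of 376 to 772 CPM in PBS and 398 to 1316 CPM in DRQ. Of 10 NK cell markers 2 were above 0, with a median of -0.10. Of 6 tested conventional DC markers 4 were above 0, with a median of 0.12, and of 2 tested plasmacytoid DC markers 1 was. The 1 tested neutrophil marker stood at -2.22, or -0.93 without PBS replicate 2. Of 2 tested epithelial markers 0 were above 0, and edgeR gave 1 lower at an unadjusted p under 0.05 (3.28% of all genes). Without PBS replicate 2 the medians were 0.084 for T cell, 0.51 for monocyte and macrophage and -0.12 for NK cell markers. The part of these cell types in the interferon response estimates was not tested.

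ISG15, a ubiquitin-like protein that is attached to other proteins, and USP18, the protease that removes it and restrains IFNAR signalling, are hallmark products of the response. Isg15 (ENSMUSG00000035692) was at 608, 393, 738 and 681 CPM in PBS replicates 1 to 4 and at 753, 951, 702 and 574 CPM in DRQ replicates 1 to 4. PBS replicate 2 was lowest, and DRQ replicate 4 lay below 3 of the 4 PBS libraries. Its log2 fold change was 0.30 ± 0.17 (SE; edgeR adjusted p = 0.750), and 0.14 without PBS replicate 2. Usp18 (ENSMUSG00000030107) was at 143, 77.0, 157 and 148 CPM in PBS and at 198, 169, 174 and 164 CPM in DRQ. The groups did not overlap, with a log2 fold change of 0.42 ± 0.21 (adjusted p = 0.691 by edgeR), and 0.24 without PBS replicate 2.

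The IFIT proteins bind viral RNA and block its translation. Ifit1 (ENSMUSG00000034459) ran against the group. It was at 39.8, 29.2, 45.8 and 39.3 CPM in PBS and at 23.2, 9.71, 20.6 and 25.6 CPM in DRQ. All 4 DRQ libraries lay below all 4 PBS libraries on counts of 5 to 22 per library, and the log2 fold change was -0.95 ± 0.40 (unadjusted p = 0.0266, adjusted p = 0.620 by edgeR). It stayed below 0 whichever library was left out, from -1.10 to -0.72. Of its family, Ifit3 stood at 0.26 ± 0.26 and Ifit2 at 0.35 ± 0.40, with overlapping groups. Ifit3 was at 0.10 without PBS replicate 2, and Ifit2 at 0.13 without DRQ replicate 3. Ifit3 and Ifit3b share the promoter stretch shown above, and 24.0% of the 31-base words in the last 500 bases of the Ifit3 transcript also occur in Ifit3b, so counting could split their reads. Ifit3b and Ifit1bl1, at 1 to 11 counts per library, were too low to test.

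The 2-5A synthetases make the messenger that activates RNase L, and Oasl1 and Oasl2 are grouped with that family here. None of the 5 had an unadjusted p under 0.05, and estimates ran from -0.44 ± 0.41 for Oas2 to 0.41 ± 0.44 for Oasl2. Oasl1 stood at 0.17 ± 0.24, and at 0.023 without DRQ replicate 2. Oas1a was at 52.5 to 74.4 CPM in PBS and at 81.3, 126, 57.3 and 36.5 CPM in DRQ. DRQ replicate 2 was the highest library, and the estimate of 0.30 ± 0.32 was -0.068 without it. Of the 31-base words in the last 500 bases of Oas1a 70.0% also occur in Oas1g, so its level is uncertain. Oasl2 was at 85.9 CPM in PBS replicate 3 against 14.8 to 23.9 CPM in the other PBS libraries, and its estimate was 1.24 without that library.

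Among the RNA sensors, the helicase genes Ifih1 (MDA5) and Dhx58 (LGP2) did not overlap between groups. Ifih1 (ENSMUSG00000026896) was at 16.3, 18.6, 22.9 and 12.3 CPM in PBS and at 38.7, 42.7, 27.5 and 25.6 CPM in DRQ. Each DRQ library lay above each PBS library, on 5 to 22 counts per library, with a log2 fold change of 0.95 ± 0.42 (unadjusted p = 0.0332, adjusted p = 0.641 by edgeR). PBS replicate 2 was not low for this gene, and without it the estimate was 0.98. Dhx58 (ENSMUSG00000017830), a regulator of the other helicases, was at 63.3, 58.4, 37.2 and 29.5 CPM in PBS and at 63.9, 69.9, 66.5 and 65.8 CPM in DRQ. The groups were apart by less than 1 CPM, between PBS replicate 1 and DRQ replicate 1, and the log2 fold change was 0.48 ± 0.31 (adjusted p = 0.783 by edgeR), or 0.31 without PBS replicate 4. The third helicase, Ddx58 (RIG-I), had overlapping groups and an estimate of 0.14 ± 0.24, which was -0.033 without PBS replicate 1.

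Zbp1 (ENSMUSG00000027514), a sensor of Z-form nucleic acid, was at 420, 234, 415 and 354 CPM in PBS and at 465, 487, 415 and 345 CPM in DRQ. The groups overlapped, PBS replicate 2 was again lowest, and the log2 fold change of 0.26 ± 0.17 (adjusted p = 0.791 by edgeR) was 0.11 without it. Ifi204, of the PYHIN family of DNA sensors, had an estimate of 0.28 ± 0.34, which was 0.030 without DRQ replicate 4 and 0.12 without PBS replicate 2. Its relative Ifi209 was too low to test and shares 71.7% of its 3′ words with Ifi214. Shares of 3′ words found in other genes were 18.5% for Ifi204, 28.1% for Oas3, 29.6% for Ifit1bl1 and 10.0% for Isg15, so these levels carry the same doubt to a lesser degree.

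The antiviral effectors had 5 of 6 estimates above 0 with all 8 libraries, and 3 of 6 without PBS replicate 2. Rsad2 (ENSMUSG00000020641) encodes viperin, which makes a chain-terminating nucleotide, and was at 7.24, 5.31, 17.2 and 27.1 CPM in PBS and at 25.2, 27.2, 61.9 and 25.6 CPM in DRQ. PBS replicate 4 lay within the DRQ range, and DRQ replicate 3 stood far above the others. The log2 fold change was 1.30 ± 0.51 on 2 to 27 counts per library (unadjusted p = 0.0162, adjusted p = 0.551 by edgeR), and ran from 0.89 to 1.82 as single libraries were left out. Cmpk2, its genomic neighbour, which supplies the nucleotide that viperin uses, stood at 0.41 ± 0.47, and at 1.24 without PBS replicate 4.

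Isg20 (ENSMUSG00000039236), an RNA exonuclease, was at 244, 109, 301 and 283 CPM in PBS and at 362, 274, 362 and 334 CPM in DRQ. Only DRQ replicate 2 lay within the PBS range. Its log2 fold change of 0.51 ± 0.22 (unadjusted p = 0.0281, adjusted p = 0.627 by edgeR) was 0.27 without PBS replicate 2, with an unadjusted p of 0.121 by edgeR. Bst2 (ENSMUSG00000046718), tetherin, which holds budding virus at the cell surface and is also a plasmacytoid DC marker in mice, was at 606, 414, 859 and 787 CPM in PBS and at 796, 872, 741 and 574 CPM in DRQ. The groups overlapped, and the estimate of 0.16 ± 0.18 (adjusted p = 0.906 by edgeR) was -0.0075 without PBS replicate 2. The dynamin-like GTPase genes Mx1 and Mx2 stood at 0.080 ± 0.22 and -0.13 ± 0.36, with overlapping groups. Mx1 was at -0.077 without PBS replicate 2, and Mx2 at 0.29 without PBS replicate 4.

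The regulators and remaining induced genes held the 3 largest estimates relative to their error, those of Ifi27l2a, Trim30a and Rtp4. Ifi27l2a (ENSMUSG00000079017), which encodes a small membrane protein, was at 1080.0, 690.0, 1428 and 1057 CPM in PBS and at 1396, 1658, 1557 and 1367 CPM in DRQ. Only PBS replicate 3 reached the DRQ range. The log2 fold change was 0.49 ± 0.16 (unadjusted p = 0.00432, adjusted p = 0.333 by edgeR). It was 0.66 without PBS replicate 3, with adjusted p = 0.0749 by edgeR, and 0.33 without PBS replicate 2, and over all its alternatives the adjusted p ran from 0.0749 to 0.635.

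Rtp4 (ENSMUSG00000033355), a chaperone for certain receptors that is strongly induced by interferon, was at 74.2, 39.8, 83.0 and 93.5 CPM in PBS and at 122, 107, 122 and 124 CPM in DRQ. The groups did not overlap. The log2 fold change was 0.70 ± 0.25 (unadjusted p = 0.00975, adjusted p = 0.459 by edgeR), and 0.51 without PBS replicate 2. Trim30a (ENSMUSG00000030921), known in mice as a negative regulator of NF-kB signalling, was at 21.7, 18.6, 34.3 and 29.5 CPM in PBS and at 46.5, 42.7, 91.8 and 47.5 CPM in DRQ. The groups did not overlap and DRQ replicate 3 was far above the rest. The log2 fold change was 1.13 ± 0.37 (unadjusted p = 0.00555, adjusted p = 0.370 by edgeR), and 0.82 without DRQ replicate 3.

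Irf7 (ENSMUSG00000025498), the transcription factor that amplifies interferon alpha production, was at 599, 475, 779 and 826 CPM in PBS and at 817, 1058, 729 and 619 CPM in DRQ. DRQ replicates 1, 3 and 4 lay within the PBS range, and the log2 fold change was 0.27 ± 0.17 (adjusted p = 0.783 by edgeR). It was 0.11 without DRQ replicate 2 and 0.14 without PBS replicate 2. The apoptosis-related gene Xaf1 stood at 0.31 ± 0.20, with 0.54 without PBS replicate 3 and 0.19 without PBS replicate 2. Ifi35 stood at 0.14 ± 0.23, and at -0.038 without PBS replicate 2. Phf11b, whose 3′ end shares 54.0% of its words with Phf11c, was at 139, 58.4, 192 and 180 CPM in PBS and at 158 to 167 CPM in DRQ, so its estimate of 0.20 ± 0.24 was -0.052 without PBS replicate 2. Phf11d and Ifi44, with Ifit1bl1, Ifit3b and Ifi209, make up the 5 members too low to test, at means of 7.60 to 28.2 CPM and 1 to 27 counts per library.

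**Figure D2:**
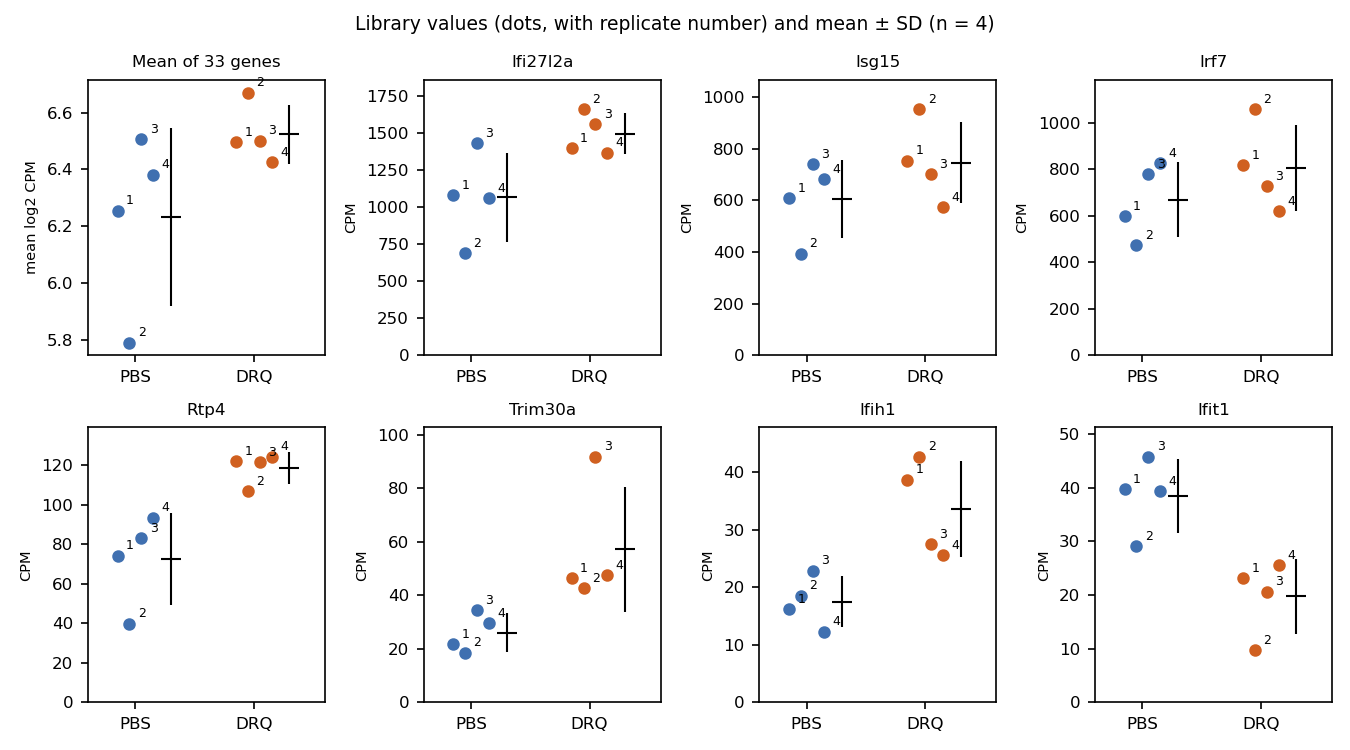
Values in each library for the mean over 33 genes (log2 CPM, axis not from 0) and for 7 of the genes (CPM, axes from 0). Dots are libraries with their replicate number and black marks are mean ± SD (n = 4); PBS replicate 2 is lowest in the mean, and Ifit1 is the gene here with all DRQ libraries below PBS.

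The library that moved each estimate most was PBS replicate 2 for 10 of the 28 genes, against 15.1% of all genes tested. PBS replicate 3 and DRQ replicate 2 moved 5 each, PBS replicate 4 moved 3, DRQ replicates 3 and 4 moved 2 each, PBS replicate 1 moved 1 and DRQ replicate 1 moved 0. For all 10 genes led by PBS replicate 2 the estimate was smaller or below 0 without it. That library was the lowest in PBS for each of these genes, so the direction follows from its level. Leaving out 1 library moved 22 of the 28 estimates by over 1.5 times or across 0 in at least 1 of 8 fits. Whichever library was left out, 18 of the 28 estimates stayed above 0 and 2, those of Ifit1 and Oas2, stayed below 0. Such counts were not taken over all genes tested, so they do not set the members apart from other genes.

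**Figure D3:**
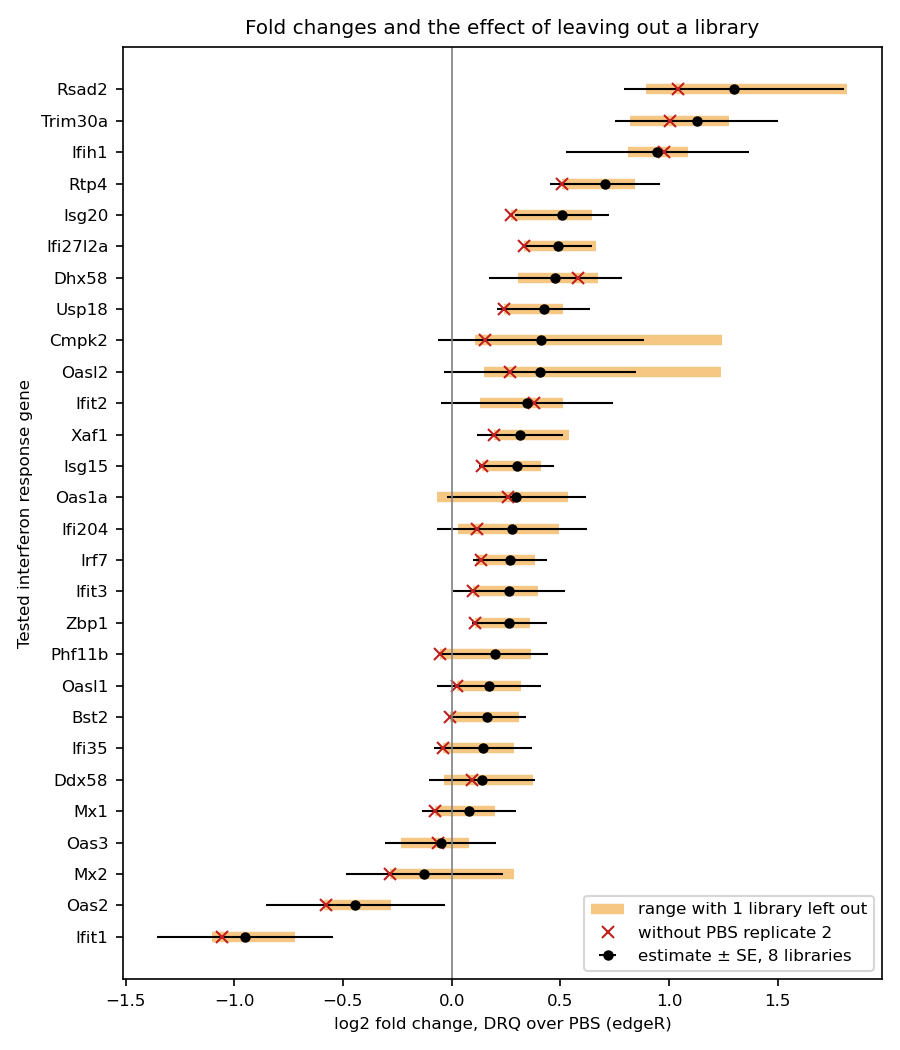
Log2 fold change, DRQ over PBS, of the 28 tested genes (black dots, estimate ± SE, 8 libraries). Orange bars span the estimates with 1 library left out and red crosses are the estimates without PBS replicate 2, which lie left of most dots.

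PBS replicate 2 was low across the response rather than in a few genes. It was the lowest of the 4 PBS libraries for 20 of the 28 tested genes, against 27.3% of all genes tested, and the lowest of all 8 for 18, against 15.8%. Its log2 CPM minus the mean of PBS replicates 1, 3 and 4 had a median of -0.70 over the 28, and 0.0084 over all genes tested. It lay below that mean for 25 of the 28 genes, against 49.3% of all genes tested. The exceptions were Ifit2, Ifih1 and Dhx58. Phf11b (-1.46), Isg20 (-1.30) and Cmpk2 (-1.07) had the greatest deficits. These counts are descriptions, since the library was singled out from these data.

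**Figure D4:**
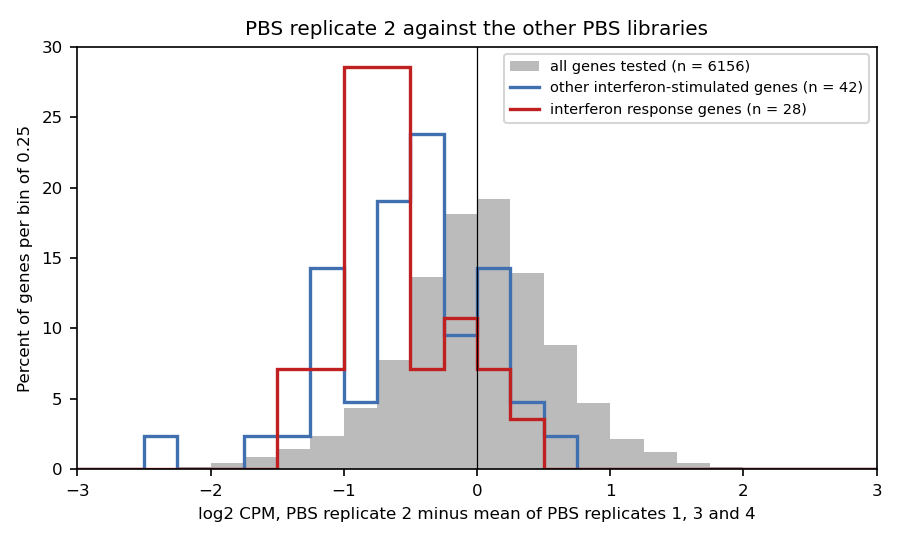
Distribution of log2 CPM in PBS replicate 2 minus the mean of PBS replicates 1, 3 and 4, as percent of genes per bin of 0.25. Red outlines the 28 interferon response genes, blue 42 other interferon-stimulated genes and grey all 6156 genes tested; the medians were -0.70, -0.42 and 0.0084.

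PBS replicate 2 also stood apart in markers of cell types. Its conventional DC markers summed to 2062 CPM, against 2797 to 4485 CPM in the other PBS libraries, and its T cell markers to 1797 CPM, against 2167 to 2600 CPM. Its NK cell markers summed to 11179 CPM, against 12695 to 15872 CPM. Its monocyte and macrophage markers, at 772 CPM, were the highest in PBS, against 376 to 627 CPM. Of 8 neutrophil markers 5 were listed, and their sum of 1484 CPM there, against 159 to 412 CPM, was nearly all Mmp9, at 1452 CPM, while Ly6g, Retnlg, Csf3r and S100a9 were at 1 to 6 counts. PBS replicate 2 had the fewest counts of the 8 libraries, 361792, with PBS replicate 3 close to it at 366205. The part of these in the low interferon response values was not tested.

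Along the pathway itself, of 12 interferon ligand genes only Ifng was listed, and the others were not analysed here. Ifng, made by NK and T cells, was at 899, 693, 907 and 1065 CPM in PBS and at 984, 945, 1209 and 868 CPM in DRQ. The groups overlapped, with a log2 fold change of 0.17 ± 0.14 (adjusted p = 0.856 by edgeR). Of the genes that carry the signal inward, the complex members Stat2 and Irf9 stood at 0.32 ± 0.23 and 0.17 ± 0.22. The receptor chains stood at 0.38 ± 0.28 for Ifnar1 and -0.10 ± 0.27 for Ifnar2, and the kinases at -0.20 ± 0.16 for Jak1 and -0.46 ± 0.24 for Tyk2. These 6 genes had overlapping groups, and 0 of them had an unadjusted p under 0.05 by edgeR.

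Of 12 tested genes that induce interferon 5 had estimates above 0, and 0 had an unadjusted p under 0.05 by edgeR. The abundant ones were Irf8 at 0.24 ± 0.16, Irf1 at 0.32 ± 0.17 and Irf3, the factor that switches on interferon beta, at -0.25 ± 0.18. Among 5 tested negative regulators 4 were above 0, and edgeR gave 1 higher at an unadjusted p under 0.05 (3.98% of all genes). That gene, Samhd1, which depletes nucleotides for viral DNA synthesis, stood at 0.39 ± 0.17 (adjusted p = 0.641 by edgeR), or 0.23 without PBS replicate 2. Ptpn2, a phosphatase that acts on JAK kinases, stood at -0.70 ± 0.44, the one below 0 (adjusted p = 0.783 by edgeR). Ptpn6 stood at 0.10 ± 0.17 and Socs3, a feedback inhibitor of cytokine signalling, at 0.24 ± 0.18.

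A second list of 51 interferon-stimulated genes had 42 tested, with 32 estimates above 0 and a median of 0.18. With edgeR 0 of them passed (0.0325% of all genes tested). At an unadjusted p under 0.05 edgeR gave 6 of the 42 higher, against 3.98% of all genes, and 0 lower, against 3.28%. Without PBS replicate 2 the median was 0.089 and 27 of the 42 were above 0, against 48.7% of all genes then tested. In that fit 4 were higher at that threshold, against 3.64% of all genes. Those 4 included Pml, which was not among the 6. Ifitm3, which blocks virus entry at the endosome, was at 264, 318, 510 and 467 CPM in PBS and at 438, 501, 755 and 555 CPM in DRQ. The groups overlapped, and the log2 fold change was 0.53 ± 0.20 (unadjusted p = 0.0119, adjusted p = 0.494 by edgeR). The other 5 of those 6 included Samd9l at 1.15 ± 0.50, Ifi205 at 1.00 ± 0.42 and the ubiquitin ligase gene Trim25 at 0.76 ± 0.31. The rest were Ogfr at 0.48 ± 0.19 and Rnf213 at 0.47 ± 0.22. The most abundant, by 3′ counts that do not scale with transcript length, were Ly6e at -0.084 ± 0.11, Shisa5 at -0.021 ± 0.12 and Lgals3bp at 0.10 ± 0.15.

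The interferon gamma induced GBP and IRG GTPases, which attack vacuoles that hold pathogens, had 10 tested members with 6 estimates above 0 and a median of 0.023. With edgeR 0 of them passed (0.0325% of all genes tested). At an unadjusted p under 0.05 edgeR gave 2 of the 10 higher, against 3.98% of all genes, and 0 lower, against 3.28%. Without PBS replicate 2, 5 of the 10 were above 0 (48.7% of all genes then tested) and 1 was higher at that threshold (3.64%). Gbp7 was lower in that fit, at -0.82 (unadjusted p = 0.0463 by edgeR), where 210 of 6684 genes were lower at that threshold. Gbp5 was at 32.6, 10.6, 28.6 and 27.1 CPM in PBS and at 69.7, 52.4, 43.6 and 40.2 CPM in DRQ. The groups did not overlap, as for 2.13% of all genes tested in that direction, with a log2 fold change of 1.03 ± 0.38 (adjusted p = 0.494 by edgeR). Irgm1 stood at 0.72 ± 0.34, and the abundant Igtp and Gbp8 at 0.23 ± 0.22 and 0.17 ± 0.23. PBS replicate 2 had a median deficit of -0.62 there too. In promoters, 9 of the 10 GTPase genes with an entry held the ISRE core and 6 held the GAS letters.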

How the data were processed

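Libraries were made with a bulk adaptation of MARS-seq, which reads 3′ ends and carries unique molecular identifiers, per the labels' protocols. Named in the submitters' processing notes, without roles, are DESeq2 1.26.0, DESeq, HTSeq, STAR 2.7.3a, cutadapt, bcl2fastq 2.20.0.422 and the build GRCm39. Collapsing of identifiers and use of strand were not given in the sources used here. Overlapping and antisense genes therefore cannot be told apart. The authors deposited raw counts per Ensembl gene, each with at least 6 counts in some library. They also deposited a normalized signal, which equals the count over a library's size factor for all 86600 values (within 0.02) and served for 1 alternative. Symbols came from an annotation of another mouse build and matched 10788 of 10825 IDs.

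The members and lists were chosen with earlier results of these data known. The main test was the robust quasi-likelihood test of edgeR 4.0.16 (R 4.3.3, 2-sided), after filterByExpr and TMM scaling, with Benjamini-Hochberg adjustment over all 6156 genes tested. It was tested on simulated data first. The SE of a log2 fold change is approximate: the size of the estimate over the square root of its F statistic. CPM are scaled by TMM, and log2 CPM has a prior count of 2. Each library's value is given for members with an unadjusted p under 0.05, groups that do not overlap, or a mean CPM among the 6 highest. Values of Oas1a, Oasl2 and Phf11b were added after they were seen. Alternatives used DESeq2 1.42.0, limma 3.58.1 (limma-voom), other scalings and filters, a replicate block and each library left out. Every pair of the 8 libraries differed by more than counting error (chi-square over its degrees of freedom, 2.60 to 4.21). Deviations of same-numbered PBS and DRQ libraries had small correlations (0.080, -0.014, 0.060 and -0.0077 for replicates 1 to 4). Differently numbered ones ran from -0.080 to 0.057, so replicates 1 and 3 gave the highest values. The main test did not treat same-numbered libraries as pairs. Shared 3′ words are 31-base runs in the last 500 bases of a member's longest coding transcript that occur in other genes' transcripts. One gene of the lists is not reported here. Figures were drawn with matplotlib 3.10.9.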

Additional observations from a re-analysis of the deposited data

Results flagged for a closer look

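In 68 sets of 4 libraries examined (each of the 33 genes and their mean, in PBS and in DRQ), 4 held 1 library far from the other 3, where chance gives about 1 in 20. Oasl2 stood at 85.9 CPM in PBS replicate 3, against 14.8 to 23.9 CPM in the other PBS libraries. In DRQ replicate 3 Rsad2 stood at 61.9 CPM, against 25.2 to 27.2 CPM, and Trim30a at 91.8 CPM, against 42.7 to 47.5 CPM. Rtp4 stood at 107 CPM in DRQ replicate 2, against 122 to 124 CPM. PBS replicate 2 was not among these for the mean over the 33 genes, at 5.79 log2 CPM.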

How the results depend on the processing

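Over 17 alternatives 0 interferon response genes were called. Their median log2 fold change ran from 0.14 (without PBS replicate 2) to 0.39 (without PBS replicate 3), and 20 to 25 of the 28 estimates were above 0. Of 476 single estimates under alternatives 463 kept their sign and 13, of 8 genes, turned; the cause was not tested. The 14 values for which DESeq2 gave no adjusted p have no side of the threshold. Mx2 was 0.014 on the deposited normalized table. With single libraries left out Mx2 ran from -0.29 to 0.29, Ddx58 from -0.033 to 0.37, Mx1 from -0.077 to 0.20, Bst2 from -0.0075 to 0.31, Ifi35 from -0.038 to 0.28, Phf11b from -0.052 to 0.37, Oas3 from -0.23 to 0.079 and Oas1a from -0.068 to 0.53.

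Over all genes edgeR called 2, against 7 with library totals, 8 with no filter, 17 by DESeq2, 4 by limma-voom and 4 with sample weights (chosen after seeing the data), and from 0 (without DRQ replicate 3) to 15 (without PBS replicate 4) as libraries were left out. A replicate block gave 6, and not every library correlated best with its own number. Low counts limit what can be detected: Rsad2 had 2 to 27 counts a library and an SE of 0.51, and depth and scatter between libraries were not separated.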

Other observations

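The ISRE core letters were compared with the fold changes across all tested genes, as a description. Of 206 tested genes whose promoter window held GAAA, any 2 bases, then GAAA, 57.3% had an estimate above 0, with a median log2 fold change of 0.046, against 49.6% of the 4492 without it, with a median of -0.0018. Outside the interferon lists the shares were 52.4% of 170 genes with the letters and 49.4% of 4443 without, with medians of 0.013 and -0.0046. Within the 19 tested interferon response genes with an entry, 9 of 11 with the letters and 8 of 8 without had an estimate above 0, with medians of 0.26 and 0.33. PBS replicate 2 was the lowest PBS library for 34.5% of the 206 and 27.0% of the 4492, and outside the lists for 30.6% and 26.7%. Within the interferon response genes the order was the other way, 63.6% with the letters and 75.0% without.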
